A study of Saccharomyces cerevisiae with 12 samples.

Results

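The genes described here are GCN4 and the enzymes that make amino acids in budding yeast (Saccharomyces cerevisiae), taken as a list of 55 gene symbols that covers the pathways of arginine, lysine, the branched-chain and aromatic amino acids, histidine, the aspartate family, serine and asparagine. Enzymes of sulfur amino acid synthesis and the strain markers HIS3 and LEU2 were left out of the list. Symbols were matched to the annotation of the array's probe sets, which gave 54 of the 55 genes, each with 1 probe set, among 5449 genes with a probe set of their own. TRP1 was not analysed here. The 54 genes are 1 regulator (GCN4), 7 arginine, 8 lysine, 10 branched-chain, 11 aromatic, 6 histidine, 5 aspartate-family, 4 serine and 2 asparagine genes.

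Transcripts were measured on 12 Affymetrix arrays, 3 for each of 4 groups. The groups were cells deficient in SLT2 after 2 h with 100 µM sodium arsenate, the same cells untreated at 0 min, wild-type cells after 2 h with 100 µM sodium arsenate, and wild-type cells untreated at 0 min. All 4 groups were BY4741, a haploid strain that lacks working HIS3, LEU2, MET17 and URA3 genes, grown to exponential phase in the rich medium YEPD, which supplies amino acids. Slt2 is the last kinase of the cell wall integrity signalling cascade. Arsenate is a toxic analogue of phosphate. Samples with arsenate were also 2 h later than those without, so arsenate and time in culture cannot be told apart. How the SLT2 deficiency was made, and how many strains carry it, is not given in the labels. The labels number the replicates and do not mention separate cultures. The p-values therefore reflect the spread among these arrays alone, some or all of which may be technical. In RNA from whole cultures, fewer cells with a transcript and less of it per cell cannot be told apart.

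Gcn4 is the transcription factor of general amino acid control. When an amino acid runs short, uncharged tRNA activates the kinase Gcn2, which slows translation in general but lets ribosomes reach the GCN4 coding sequence past short upstream reading frames, and Gcn4 then activates most enzymes of amino acid synthesis. Gcn4 is thus set largely by translation and by protein decay, and an array reads neither. Several enzymes also answer to a regulator of their own pathway, such as Leu3 for leucine, Lys14 for lysine, Aro80 for aromatic amino acid use and the ArgR factors for arginine.

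Levels are given as log2 signal, on which a step of 1 is a doubling, and levels of different genes were not compared because each probe set has its own brightness. SLT2 lay between 5.22 and 5.81 on slt2 arrays and between 10.66 and 11.01 on wild-type arrays. LEU2, URA3 and MET17, which this strain lacks, lay between 3.74 and 5.47 on all arrays. The 54 genes lay between 8.12 and 14.22, above those values on every array. Before any comparison, 3 wild-type arrays stood apart from the rest: arsenate arrays 1 and 2 and untreated array 2. A list of 13 general stress genes had a median 4.05 and 2.71 above its untreated wild-type mean on wild-type arsenate arrays 1 and 2, and 1.34 above it on untreated array 2. On the remaining 9 arrays this median lay between -0.73 and 0.07. Probe sets at the 3′ end of 7 control transcripts exceeded those at the 5′ end, a sign of RNA quality, by 1.79 on wild-type arsenate array 2 and 1.59 on wild-type untreated array 2. The remaining 10 arrays had 0.92 to 1.17.

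Across all comparisons, no amino acid synthesis gene passed the test. Each pairwise comparison was fitted with limma to the 6 arrays of its groups, p-values were adjusted over all 5449 genes by the Benjamini-Hochberg method, and a gene passed at an adjusted p under 0.05. In slt2 cells with arsenate the 54 genes stayed within 0.53 of their untreated level. In wild-type cells with arsenate most of them were lower, by a median of 0.50, but only on 2 of the 3 arrays. The map of all genes on all arrays shows both patterns, and one more: arginine genes, LYS20 and BAT2 differed between arrays of the same group.

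**Figure D1:**
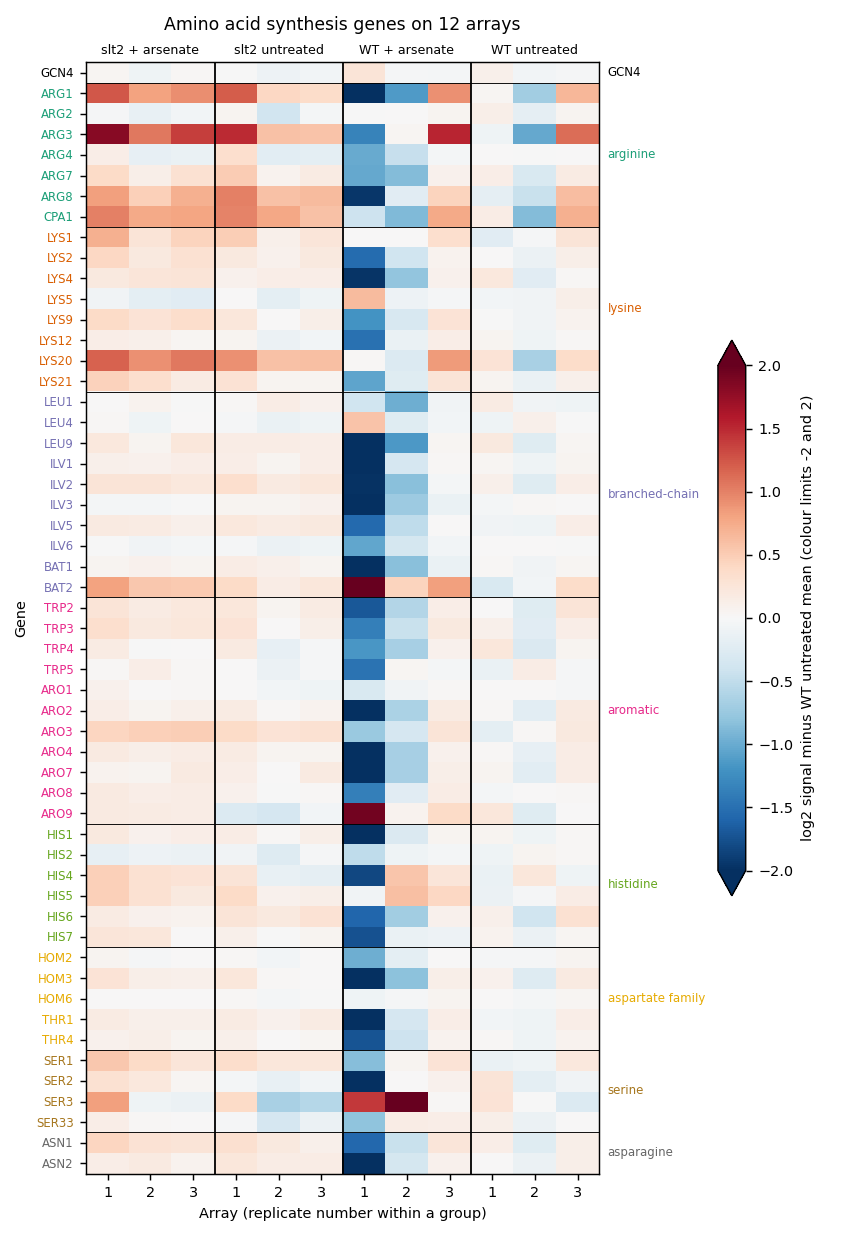
Each of the 54 genes (rows, grouped by pathway) on each of the 12 arrays (columns, by group and replicate number), coloured by log2 signal minus the gene's mean over the 3 untreated wild-type arrays, with colour limits at -2 and 2. The column of wild-type arsenate array 1 is blue for most genes and dark red for BAT2 and ARO9, while ARG1, ARG3, ARG8, CPA1 and LYS20 are red on all 6 slt2 arrays and on wild-type arsenate array 3.

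GCN4 (YEL009C) was close to constant. Its signal was 13.89, 13.77 and 13.88 on slt2 arsenate arrays 1, 2 and 3, against 13.84, 13.75 and 13.78 on slt2 untreated arrays. In wild type it was 14.11, 13.81 and 13.81 with arsenate, against 13.95, 13.79 and 13.82 without. All 12 values lay within 0.36, and the groups overlapped in both genotypes. The arsenate difference was 0.05 in slt2 (SE 0.05, 95% interval -0.08 to 0.18, limma adjusted p = 0.708) and 0.06 in wild type (SE 0.19, interval -0.40 to 0.52, adjusted p = 0.868). Between genotypes GCN4 differed by -0.07 with arsenate and -0.06 without it (slt2 minus wild type, adjusted p = 0.782 and 0.764). The slt2 interval spans small differences only. GCN4 was also among the brightest genes: its mean level was at percentile 98.1 of all genes, and the highest value of any probe set was 14.91. Whether signals this bright are compressed, which would narrow the differences, was not tested. The wild-type interval is wider, and its arsenate group holds the highest value of all, on array 1.

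In slt2 cells the arsenate effect on the synthesis genes was small. By limma 0 of 54 passed, against 2.46% of all genes tested, and the smallest adjusted p was 0.0648. At an unadjusted p under 0.05 there were 11 genes, 9 higher and 2 lower with arsenate, against 16.7% of all genes. The median difference was 0.06, against 0.03 over all genes, and 41 of 54 genes lay above 0, against 61.1% of all genes. The groups did not overlap for 11 genes that were higher with arsenate (ARO1, ARO3, ARO8, ARO9, BAT2, HIS4, LYS4, LYS9, SER2, SER33 and TRP5), against 15.3% of all genes, and for 2 that were lower (HIS6 and ILV3), against 7.27%.

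ARO9 (YHR137W), the aminotransferase that yeast uses to break down aromatic amino acids, came nearest to passing. It had 11.81, 11.79 and 11.77 on slt2 arsenate arrays and 11.34, 11.28 and 11.57 on slt2 untreated arrays. All 3 arsenate arrays were above all 3 untreated ones. The difference was 0.39, a fold of 1.31 (SE 0.08, interval 0.20 to 0.58, limma adjusted p = 0.0648). It passed when each array was first centred on its median (0.35, adjusted p = 0.0376), when arrays were quantile-normalised again (0.36, adjusted p = 0.0317) and when untreated array 3 was left out (0.48, adjusted p = 0.0364). It passed in 4 of 16 alternatives in all, over which its adjusted p ran from 0.000314 to 1. Without slt2 arsenate array 1 it was 0.201 and without array 2 0.194, and in the model on all 12 arrays it was 1.

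BAT2 (YJR148W), the cytosolic branched-chain aminotransferase, also acts in breakdown. Its signal was 12.33, 12.07 and 12.04 with arsenate and 11.91, 11.67 and 11.75 without it in slt2 cells, a difference of 0.37 (SE 0.10, limma adjusted p = 0.132). The groups did not overlap. Among enzymes of synthesis proper, HIS4 (YCL030C), a multifunctional enzyme of histidine synthesis, was 0.37 higher (SE 0.13, adjusted p = 0.204), and without untreated array 1 the difference was 0.51 and passed (adjusted p = 0.0463). SER2 (YGR208W), the phosphatase that ends serine synthesis, was 0.27 higher (SE 0.08, adjusted p = 0.146), with 11.60, 11.51 and 11.33 against 11.25, 11.15 and 11.23. LYS9, a saccharopine dehydrogenase, was 0.22 higher (SE 0.07, adjusted p = 0.166). ILV3, the dihydroxyacid dehydratase, was 0.10 lower, with 13.43, 13.43 and 13.46 against 13.53, 13.53 and 13.56 (SE 0.04, adjusted p = 0.285). HIS6 was 0.14 lower (SE 0.05, adjusted p = 0.237). With limma's trend and robust options 7 genes passed, 6 of them higher (ARO3, ARO8, ARO9, BAT2, LYS9 and SER2) and 1 lower (ILV3), while 7.54% of all genes passed.

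**Figure D2:**
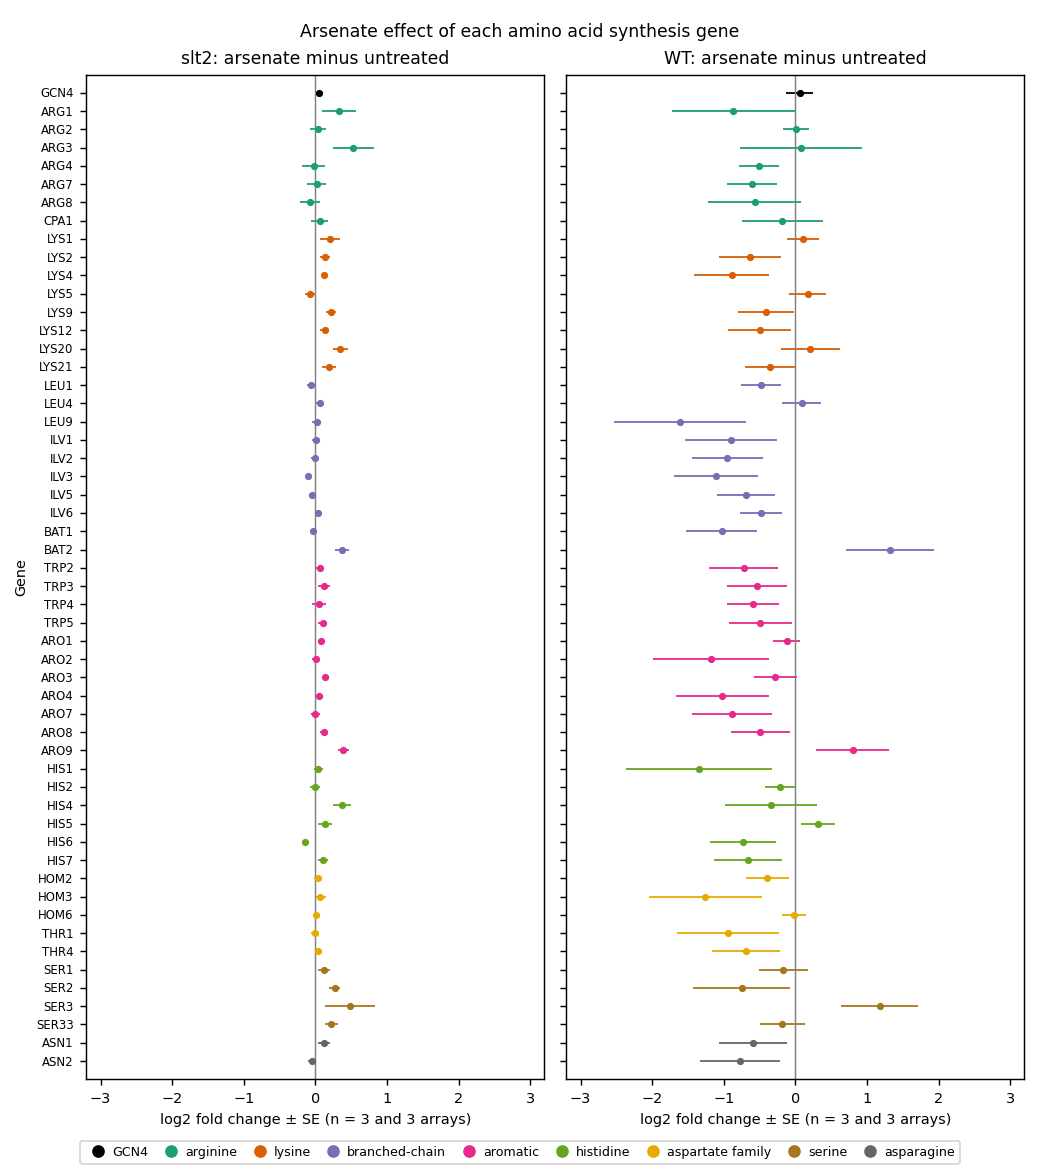
Difference in log2 signal between arsenate and untreated arrays for each of the 54 genes, in slt2 (left) and in wild type (right), with bars of 1 SE from limma (3 arrays in each group) and colours by pathway. Points in slt2 sit between -0.14 and 0.53, whereas those in wild type spread from -1.61 to 1.32 with bars that are several times longer.

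In wild-type cells the synthesis genes were lower with arsenate on average, without passing. By limma 0 of 54 passed, against 0% of all genes, and at an unadjusted p under 0.05 there were 0 of the 54 genes, against 1.32% (72) of all genes. A model fitted to all 12 arrays also called 0 of the 54 genes and had 10 of them at an unadjusted p under 0.05, against 12.8% of all genes. That model gives a gene the same spread in all groups, so its p-values can misstate a single comparison. The median SD of the 54 genes was 0.85 in wild type with arsenate and 0.06 to 0.15 in the other groups. The median difference was -0.50, against 0.06 over all genes. It was below 0 for 43 of 54 genes and above 0 for 11, while 55.2% of all genes lay above 0. The groups did not overlap for 4 genes that were lower (ARG4, BAT1, ILV3 and ILV6), against 2.92% of all genes, and for 1 that was higher (BAT2), against 5.65%.

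Pathway medians of the wild-type difference ran from -0.80 for branched-chain genes to -0.18 for serine genes, with -0.69 for the aspartate family, -0.68 for asparagine, -0.54 for aromatic, -0.51 for arginine, -0.50 for histidine and -0.38 for lysine genes. The 3 arsenate arrays did not share this shift. Relative to the untreated wild-type mean, the median of the 54 genes was -1.37 on arsenate array 1, -0.32 on array 2 and 0.09 on array 3. On these arrays 46, 45 and 13 of the 54 genes lay below that mean. Of all 5449 genes, 2390, 3123 and 2015 lay below their own. Array 1 held the lowest of the 3 arsenate values for 44 of 54 genes, against 38% of all genes, and array 3 held the highest for 44, against 37.6%.

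The same arrays differed in other gene groups. The median of 12 ribosome biogenesis genes was -3.66, -0.68 and 0.15 on wild-type arsenate arrays 1, 2 and 3, and that of 10 glucose-repressed genes was 5.62, 0.39 and -0.28. All 13 general stress genes were above their untreated mean on arrays 1 and 2, and 9 were below it on array 3. Array 2 also had the RNA end ratio given above. The part of these differences in the result was not tested. Without the 3 arrays that stood apart, the median of the 54 genes in wild type was 0.02, and 28 genes changed sign. Only array 3 then remained in the wild-type arsenate group, so these values describe that array and not a group. Without arsenate array 1 alone the median of the 54 genes was -0.10, and without arsenate array 3 alone it was -0.81.

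**Figure D3:**
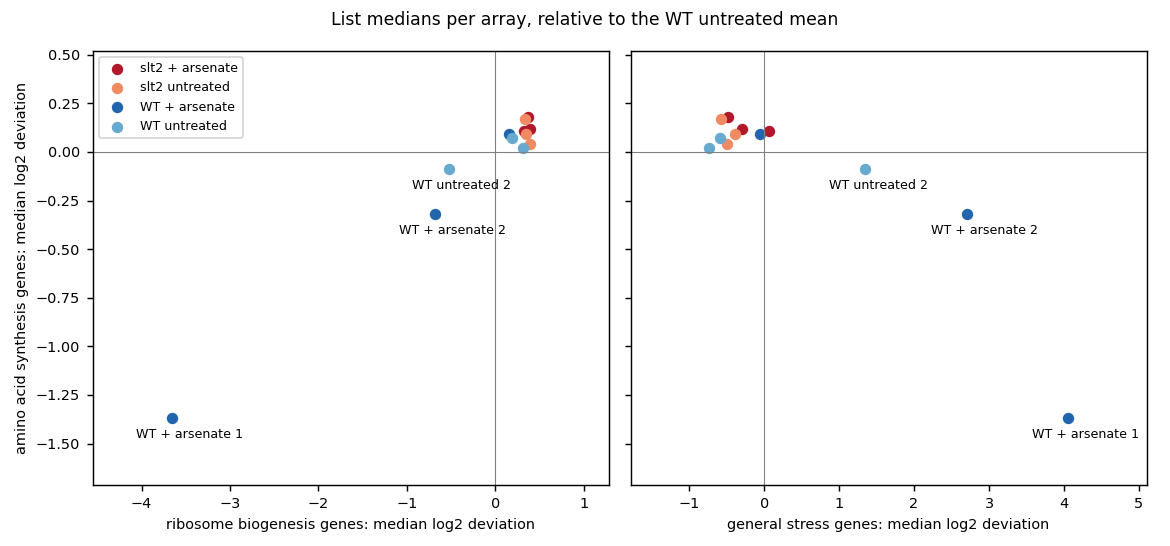
Median of the 54 synthesis genes on each array (vertical axis) against the median of the ribosome biogenesis genes (left) and of the general stress genes (right), all as log2 difference from the untreated wild-type mean, with 1 point for each of the 12 arrays. Wild-type arsenate array 1 lies at -1.37 for synthesis genes, at -3.66 for ribosome biogenesis and at 4.05 for stress genes, and wild-type arsenate array 2 lies at -0.32 for synthesis genes.

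Branched-chain genes held the widest contrast within a pathway. BAT1 (YHR208W), the mitochondrial aminotransferase of the last synthesis step, had 11.14, 12.43 and 13.11 in wild type with arsenate, against 13.28, 13.19 and 13.29 without it. Its paralog BAT2 had 14.22, 11.97 and 12.34 with arsenate, against 11.21, 11.48 and 11.88 without it. BAT1 was below and BAT2 above all untreated values on every arsenate array. The differences were -1.03 for BAT1 (SE 0.50, interval -2.25 to 0.20) and 1.32 for BAT2 (SE 0.61, interval -0.17 to 2.81), each with a limma adjusted p of 0.631. In slt2 cells BAT1 differed by -0.03 (SE 0.05, adjusted p = 0.789). ILV3 in wild type had 11.01, 12.74 and 13.33 with arsenate, against 13.43, 13.49 and 13.48 without (-1.11, SE 0.59), and ILV6, the regulatory subunit of acetolactate synthase, was 0.48 lower (SE 0.29).

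The isopropylmalate synthases LEU4 and LEU9, which start leucine synthesis, deviated in opposite directions on 1 array. LEU9 (YOR108W) had 8.12, 10.70 and 11.88 in wild type with arsenate, against 12.04, 11.60 and 11.89 without. LEU4 (YNL104C) had 13.73, 12.91 and 13.12 with arsenate, against 13.07, 13.26 and 13.15 without. On arsenate array 1 LEU9 was at its lowest and LEU4 at its highest of the 12 arrays. The wild-type differences were -1.61 for LEU9 (SE 0.92, interval -3.87 to 0.65, limma adjusted p = 0.631) and 0.09 for LEU4 (SE 0.27, adjusted p = 0.860). In slt2 they were 0.02 (SE 0.06, adjusted p = 0.923) and 0.06 (SE 0.05, adjusted p = 0.673).

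Aromatic genes showed the same kind of contrast in wild type. ARO9 had 13.56, 11.70 and 12.02 with arsenate, against 11.86, 11.38 and 11.63 without (0.80, SE 0.51, limma adjusted p = 0.631). ARO8, its paralog that serves synthesis, had 11.71, 12.85 and 13.23, against 13.05, 13.09 and 13.12 (-0.49, SE 0.41). The other end of the pathway, from the paralogous first enzymes ARO3 and ARO4 to chorismate, was lower on array 1 throughout. ARO4 was 1.02 lower on average (SE 0.65), ARO3 0.28 lower (SE 0.30) and ARO2, the chorismate synthase, 1.18 lower (SE 0.81). ARO7, the chorismate mutase, was 0.89 lower (SE 0.56). In slt2 ARO4 differed by 0.05, ARO2 by 0.01, ARO7 by 0.00, ARO8 by 0.12 and ARO3 by 0.14 (adjusted p between 0.224 and 0.985).

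In the histidine pathway HIS1 (YER055C), the enzyme of the first step, had the widest range of all 54 genes over the 12 arrays, 4.01. It had 9.52, 13.04 and 13.38 in wild type with arsenate, against 13.39, 13.25 and 13.36 without, a mean difference of -1.35 (SE 1.02, limma adjusted p = 0.631). Only array 1 lay far from the untreated values. In slt2 its 6 values lay between 13.37 and 13.53. HIS4 had 10.81, 13.19 and 12.88 in wild type with arsenate, against 12.50, 12.85 and 12.54 without (-0.34, SE 0.64). Arrays 2 and 3 were thus above, and array 1 below, every untreated value of HIS4. HIS5 was the histidine gene with the highest wild-type difference (0.32, SE 0.24) and HIS6 had -0.73 (SE 0.46).

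The aspartate family held the steadiest gene. HOM6 (YJR139C), the homoserine dehydrogenase, varied by 0.13 over the 12 arrays, with differences of 0.01 in slt2 (SE 0.04) and -0.02 in wild type (SE 0.17). Its signal was high, between 13.54 and 13.67, and compression of bright signals was not tested. HOM3 (YER052C), the aspartate kinase that starts the family, had 9.33, 11.58 and 12.51 in wild type with arsenate, against 12.48, 12.14 and 12.58 without (-1.26, SE 0.79, limma adjusted p = 0.631). The highest arsenate value of HOM3 was within the untreated range. THR1, the homoserine kinase, was 0.94 lower in wild type (SE 0.71) and differed by -0.01 in slt2 (SE 0.05). The asparagine synthetases ASN1 and ASN2 differed in wild type by -0.59 (SE 0.47) and -0.77 (SE 0.56), and differed by 0.12 and -0.05 in slt2 (SE 0.08 and 0.05, adjusted p = 0.527 and 0.708).

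Serine synthesis begins with SER3 and SER33, paralogous phosphoglycerate dehydrogenases. SER3 (YER081W), which serine is known to repress through transcription of a neighbouring noncoding RNA, had 10.49, 11.15 and 9.09 in wild type with arsenate, against 9.34, 9.05 and 8.80 without. Arrays 1 and 2 were above all untreated values and array 3 was among them. The difference was 1.18 (SE 0.54, interval -0.13 to 2.49, limma adjusted p = 0.631). In slt2 SER3 had 9.88, 8.97 and 8.94 with arsenate, against 9.44, 8.42 and 8.49 without (0.48, SE 0.35, adjusted p = 0.571). SER33 differed by -0.18 in wild type (SE 0.31) and by 0.22 in slt2 (SE 0.09, adjusted p = 0.300), and its slt2 groups did not overlap. SER2 in wild type had 8.95, 11.29 and 11.38 with arsenate, against 11.55, 11.11 and 11.23 without. Its mean difference of -0.75 (SE 0.68) rested on array 1 and became 0.04 without it. SER1, the serine aminotransferase, differed by -0.17 (SE 0.34).

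Lysine genes were the pathway with the second highest median in slt2, 0.17 after serine with 0.24. LYS20 (YDL182W) and LYS21 (YDL131W) encode homocitrate synthases, which start the pathway. LYS20 had 12.87, 12.60 and 12.74 in slt2 with arsenate, against 12.61, 12.28 and 12.29 without (0.35, SE 0.11, limma adjusted p = 0.179). LYS21 had 11.59, 11.48 and 11.30, against 11.43, 11.19 and 11.18 (0.19, SE 0.10, adjusted p = 0.422). The groups overlapped narrowly in both genes. In wild type LYS20 differed by 0.21 (SE 0.41) and LYS21 by -0.35 (SE 0.35). LYS4, the homoaconitase, had the lowest wild-type difference of the pathway, -0.89 (SE 0.52). LYS5, which activates the enzyme Lys2, had the lowest in slt2, -0.07 (SE 0.07). Whether the probe sets of near-identical pairs such as LYS20 and LYS21 also read the paralog was not tested.

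**Figure D4:**
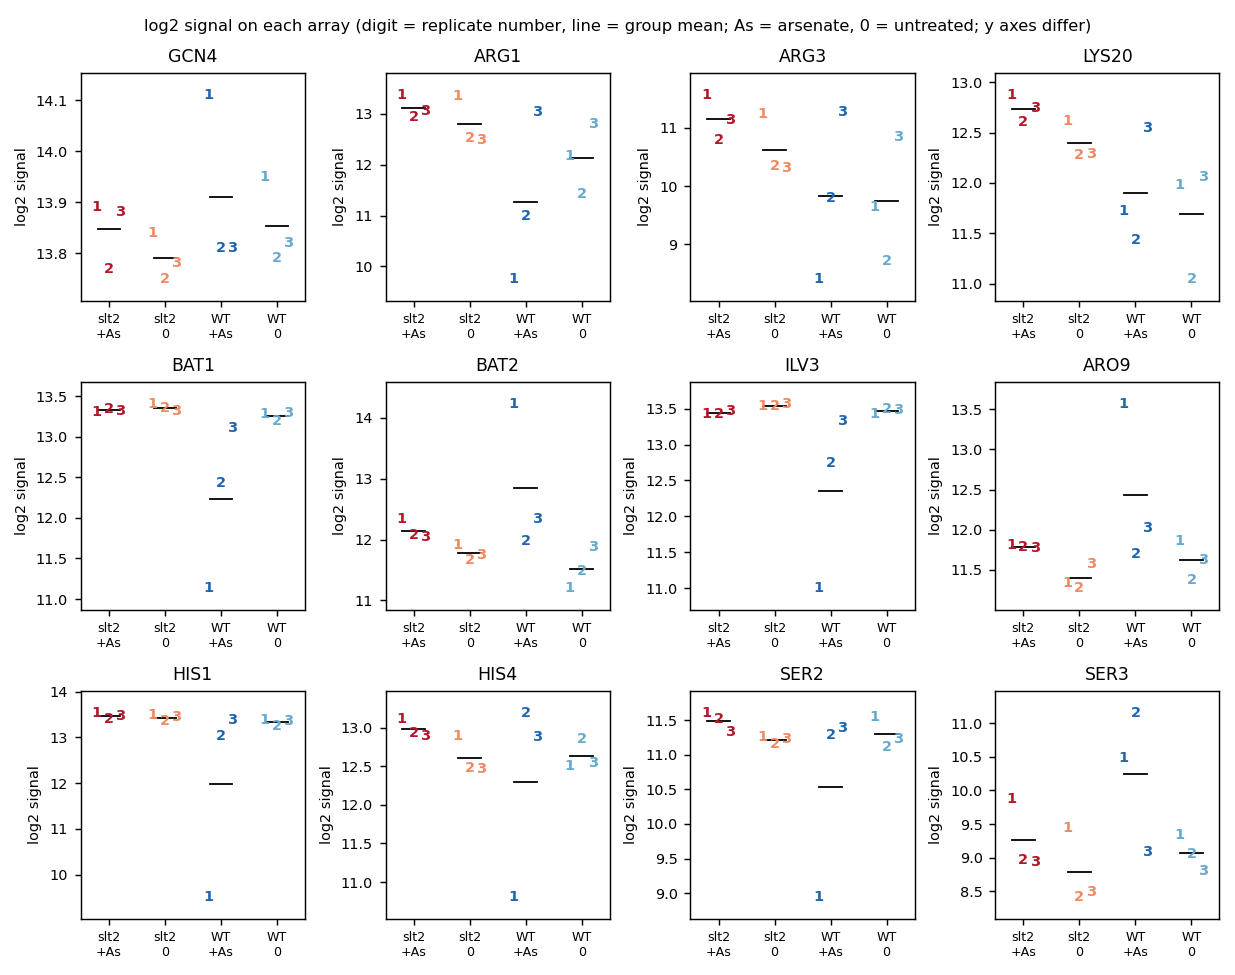
log2 signal of 12 of the genes on each array, as digits that give the replicate number, with a line at each group mean; the groups run from slt2 with arsenate (left) to untreated wild type (right), and the vertical axes differ between genes. In HIS1, SER2 and ARO9 the wild-type arsenate group is split by array 1, and in ARG1 and ARG3 array 1 is the highest in both slt2 groups.

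Without arsenate, the differences between slt2 and wild-type cells were small for most synthesis genes. It is not known whether the arrays of both genotypes were summarised together, and a difference between runs and one between genotypes cannot be told apart. By limma 0 of 54 genes passed, against 0.0184% of all genes tested (SLT2 itself), and the smallest adjusted p of a member was 0.360. At an unadjusted p under 0.05 there were 3 genes, ARG8, LYS20 and ARO3, all higher in slt2, against 13.6% of all genes. The median difference, slt2 minus wild type, was 0.10, against -0.03 over all genes, and 36 of 54 genes lay above 0, against 44.8% of all genes. The groups did not overlap for 8 genes that were higher in slt2 (ARO3, ASN2, BAT1, ILV2, ILV3, ILV5, LYS20 and SER1), against 8.94% of all genes, and for ILV6, which was lower, against 17.9%.

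Arginine genes had the highest pathway median in that comparison, 0.66, while the other pathways lay between -0.12 and 0.19. Of the 7 arginine genes 5 were higher in slt2 and 2 lower, and the groups overlapped for all of them. Mean levels of the lower ones were 9.09 against 9.21 for ARG2 and 12.20 against 12.23 for ARG4. Without wild-type untreated array 2, one of the arrays that stood apart, the arginine median was 0.31, with 0.37 for ARG3, 0.36 for CPA1, 0.52 for ARG8 and 0.38 for LYS20, and the median of all 54 genes was 0.03. ARG3 (YJL088W), the ornithine carbamoyltransferase, had 11.23, 10.34 and 10.31 in untreated slt2, against 9.65, 8.72 and 10.85 in untreated wild type. The difference was 0.88 (SE 0.56, limma adjusted p = 0.491), and the groups overlapped because wild-type array 3 was above 2 of the slt2 arrays. ARG8 (YOL140W), the acetylornithine aminotransferase, had 11.85, 11.43 and 11.48, against 10.67, 10.41 and 11.46 (0.74, SE 0.29, adjusted p = 0.361). CPA1, the small subunit of the carbamoyl phosphate synthetase of this pathway, was 0.79 higher (SE 0.39, adjusted p = 0.413). LYS20 had 12.61, 12.28 and 12.29, against 11.98, 11.05 and 12.06 (0.70, SE 0.28, adjusted p = 0.363), with no overlap. ARO3 had 12.53, 12.42 and 12.44, against 11.94, 12.16 and 12.33 (0.32, SE 0.12, adjusted p = 0.360), also with no overlap.

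With arsenate the gap between genotypes was wider. By limma 0 of 54 genes passed, against 0.0184% of all genes, and the smallest adjusted p was 0.365. The median of slt2 minus wild type was 0.78, against -0.05 over all genes, and 47 of 54 genes lay above 0, against 46.1%. At an unadjusted p under 0.05 there were 3 genes, ARG7, ARO3 and LYS20, all higher in slt2, against 8.90% of all genes. The groups did not overlap for 18 genes that were higher in slt2, against 16.5% of all genes, and for ARG2, the acetylglutamate synthase, which was 0.09 lower, against 23.6%. The model on all 12 arrays called 0 of the 54 as well and had 26 of them at an unadjusted p under 0.05, against 33% of all genes. This comparison uses the same wild-type arsenate arrays as the wild-type arsenate effect. Without wild-type arsenate array 1 the median was 0.29. Without the 3 arrays that stood apart, which leaves only array 3 in the wild-type arsenate group, it was 0.05.

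ARG1 (YOL058W), the argininosuccinate synthetase, had the largest mean difference between genotypes with arsenate. It had 13.36, 12.93 and 13.06 in slt2, against 9.76, 10.99 and 13.03 in wild type, a difference of 1.86 (SE 0.82, interval -0.17 to 3.88, limma adjusted p = 0.365). Wild-type array 3 lay within the slt2 range. LEU9 was 1.78 higher in slt2 (SE 0.94), ILV2, the catalytic subunit of acetolactate synthase, 1.18 higher (SE 0.49) and HIS1 1.49 higher (SE 1.04). For these 3 genes no wild-type value reached the slt2 values, but narrowly so for LEU9 and HIS1. On wild-type arsenate array 3 these 2 had 11.88 and 13.38, against lowest slt2 arsenate values of 11.90 and 13.41. On wild-type arsenate array 1 they had 8.12 and 9.52. The lowest differences were those of SER3 (-0.98, SE 0.58), BAT2 (-0.70, SE 0.60) and ARO9 (-0.63, SE 0.50).

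The difference between the arsenate effects, slt2 minus wild type, asks whether the genotypes answered arsenate differently. By limma on all 12 arrays 0 of 54 genes passed, against 0% of all genes, and the smallest adjusted p was 0.711. This fit gives a gene the same spread in all groups, though the groups differed in spread. At an unadjusted p under 0.05 there were 0 of the 54 genes, against 0.514% (28) of all genes. The median was 0.62, against -0.02 over all genes, with 47 of 54 genes above 0, against 47.6% of all genes. LEU9 had the highest difference, 1.63 (SE 1.01, interval -0.62 to 3.88), and BAT2 the lowest, -0.95 (SE 0.66, interval -2.44 to 0.53). By sign, 31 genes were higher with arsenate in slt2 and lower in wild type, 10 were higher in both, 12 lower in both and 1 lower in slt2 and higher in wild type. Without wild-type arsenate array 1 the median was 0.18, and without array 3 it was 0.97. Without the 3 arrays that stood apart, which leaves only array 3 in the wild-type arsenate group, it was 0.03.

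Between the slt2 arrays, which varied little, arginine was the pathway of the 54 genes with the highest median SD. The median SD of the 54 genes was 0.06 on slt2 arsenate arrays and 0.08 on slt2 untreated arrays, against 0.85 and 0.15 in the wild-type groups with and without arsenate. Over all genes it was 0.07 and 0.08 in slt2, and 0.49 and 0.21 in wild type. For the 7 arginine genes it was 0.16 and 0.24 in slt2. SER3 (0.53 with arsenate and 0.57 without), ARG3 (0.39 and 0.52) and ARG1 (0.22 and 0.48) had the largest SDs without arsenate. Array 1 was the highest of its group in both slt2 groups for 39 of 54 genes (72.2%), all 7 arginine genes included, against 17.2% of all genes. ARG4, the argininosuccinate lyase, had 12.37, 12.07 and 12.11 with arsenate, against 12.56, 12.02 and 12.03 without. For ARG4, array 1 stood above arrays 2 and 3 with and without arsenate. Without both slt2 arrays 1, an alternative chosen after seeing the data, the median arsenate difference of the 54 genes in slt2 was 0.08 and 0 genes passed.

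**Figure D5:**
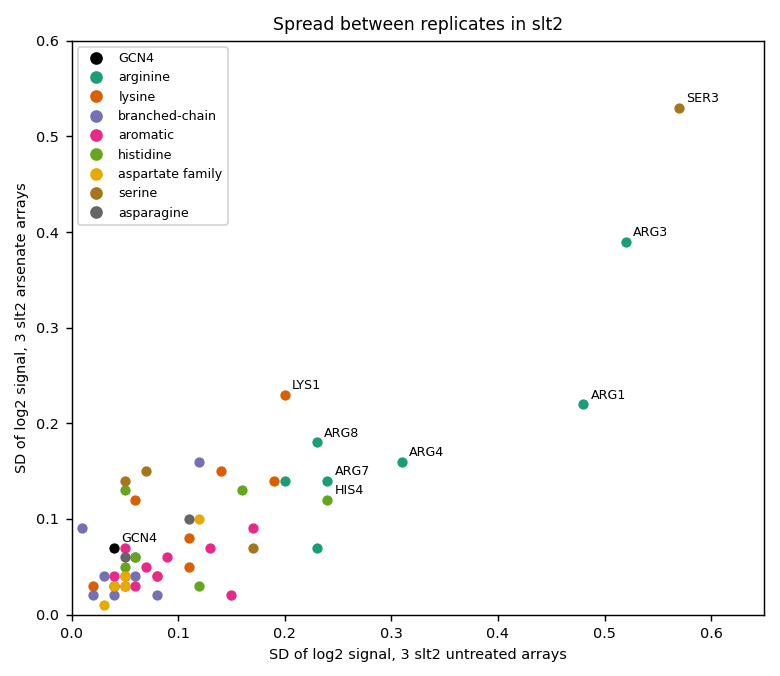
SD of the log2 signal over the 3 slt2 arsenate arrays (vertical axis) against the SD over the 3 slt2 untreated arrays (horizontal axis), with 1 point for each of the 54 genes, coloured by pathway. SER3 (0.53 and 0.57), ARG3 (0.39 and 0.52) and ARG1 (0.22 and 0.48) lie far from the other genes, and GCN4 (0.07 and 0.04) is near the lower left corner.

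Members that followed GCN4 most closely differed with the arrays used. Over the 12 arrays, Pearson's r with GCN4 was highest for ARO9 (0.86), LYS5 (0.80), LEU4 (0.78), BAT2 (0.71) and SER3 (0.53). These r were at percentiles 96.2, 86.5, 83.9, 74.3 and 59.0 of all genes, so SER3 was unremarkable. Of the 53 genes other than GCN4, 6 had an r above 0, and the median r was -0.69. Among all genes, an r of -0.10 (LYS20) was at percentile 38.4. Over the 6 slt2 arrays, r was highest for LEU4 (0.97), LYS1 (0.94), ILV6 (0.92), HOM2 (0.91) and LYS2 (0.90), 47 of 53 genes had an r above 0, and the median was 0.65. Over the 9 arrays without the 3 that stood apart, 33 of 53 genes had an r above 0 and the median was 0.10. Most of all genes also had an r above 0 in these 2 sets. An r of 0.13 (HIS2) was at percentile 37.9 of all genes over the 6 slt2 arrays. Over the 9 arrays an r of 0.00 (LYS20) was at percentile 30.3. All points of a set share their arrays, and GCN4 varied by only 0.14 over the slt2 arrays, so these values describe the arrays and no more.

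Regulators and neighbouring pathways gave no gene past the threshold. Of 24 regulators of amino acid synthesis, 0 passed in any comparison by limma, with the smallest adjusted p, 0.0773, in the slt2 arsenate effect. GCN2, the kinase that senses uncharged tRNA, differed by -0.06 with arsenate in slt2 (SE 0.09) and by 0.14 in wild type (SE 0.23). LEU3 differed by 0.08 and -0.10, and LYS14 by 0.04 and 0.02. ARO80, the activator of ARO9, had 8.58, 8.61 and 8.47 in slt2 with arsenate, against 8.55, 8.22 and 8.52 without (0.12, SE 0.10). In wild type it had 10.09, 8.99 and 8.81 with arsenate, against 8.84, 8.53 and 8.81 without (0.57, SE 0.37). Its highest value fell on the same array as that of ARO9. Within the wild-type arsenate group, that array held the highest value for 51.4% of all genes and for 5 of the 54 synthesis genes. Whether the levels of ARO80 and ARO9 are linked was not tested.

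PCL5 (YHR071W), a cyclin known to drive the decay of Gcn4 and itself a Gcn4 target, was the regulator with the largest difference between genotypes. It had 11.23, 10.74 and 11.04 in slt2 with arsenate, against 9.54, 9.47 and 10.27 in wild type with arsenate. Without arsenate it had 11.12, 10.51 and 10.74 in slt2, against 9.54, 9.34 and 10.36 in wild type. No wild-type value reached an slt2 value of the same treatment. The difference was 1.25 with arsenate (SE 0.28, interval 0.56 to 1.93, limma adjusted p = 0.365) and 1.04 without it (SE 0.30, interval 0.32 to 1.76, adjusted p = 0.360). Without wild-type untreated array 2, the untreated difference was 0.84. The 4 measured Gcn4 targets outside amino acid synthesis, PCL5 among them, had a median of 0.90 with arsenate and 0.69 without it. Over all genes these medians were -0.05 and -0.03. The 4 differences ran from 0.54 to 1.25 with arsenate and from -0.02 (ODC2) to 1.12 without it. SNO1 had 4.96, 4.07 and 5.59 in untreated wild type, near the values of genes this strain lacks (3.74 to 5.47). ODC2 had 9.72, 11.14 and 11.67 in wild type with arsenate, against 11.77, 11.71 and 11.88 in slt2. The arsenate effects of PCL5 were 0.21 in slt2 (SE 0.18) and 0.01 in wild type (SE 0.37).

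Of 13 measured genes of other amino acid pathways, 0 passed in any comparison by limma, and their median arsenate difference was 0.05 in slt2 and -0.36 in wild type. ARG5,6 was not analysed here. Of 4 measured Gcn4 targets outside amino acid synthesis, 0 passed as well. Among these SNO1 and SNZ1, which act together in vitamin B6 synthesis and were singled out after their values were seen, were 0.99 (SE 0.23, adjusted p = 0.0896) and 0.62 higher (SE 0.17, adjusted p = 0.146) with arsenate in slt2. In wild type they differed by 1.26 (SE 0.77) and 0.40 (SE 0.29). ODC2, a mitochondrial oxodicarboxylate carrier of the same list, differed by -0.13 in slt2 (SE 0.07) and -1.10 in wild type (SE 0.52). SNO1 had 7.45, 6.70 and 6.81 in slt2 with arsenate, against 6.31, 5.73 and 5.95 without. The untreated values are near those of SLT2 in cells deficient in it, 5.22 to 5.81, so the size of the SNO1 difference is uncertain.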

How the data were processed

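Total RNA of 12 samples was hybridised to 1-colour Affymetrix arrays. The authors deposited log2 signals that, per the submitters' processing notes, were made with RMA and Affymetrix Expression Console. The sources used here give no versions or settings, nor whether all arrays shared 1 run. RMA makes the distributions of the arrays alike, which can hide a shift of all genes. Array medians ran from 9.98 to 10.2. Precision is limited by the 3 arrays per group.

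Of 5814 probe sets, 5498 had 1 symbol and 316 none. All 5498 were matched to a RefSeq gene table. For 47 genes with several, the probe set with the highest mean was kept. Comparisons used lmFit and eBayes of limma 3.58.1 in R 4.3.3, tested on simulated data, with the 6 arrays of each pair of groups, and all 12 for the difference of effects. Gene lists and medians were described without a test. The named genes are GCN4, members past the threshold, the 5 with the largest difference without overlap per comparison, each pathway's highest and lowest arsenate effects, 7 paralog pairs, PCL5, GCN2, LEU3, LYS14 and ARO80; others complete a pathway and were chosen after their values were seen. Members, lists and tests were chosen with earlier results of these data known. Alternatives were the 12-array model, a replicate block, centring, quantile normalization, means of probe sets, a filter at a mean of 6, limma's trend and robust options, 1 weight per group, and arrays left out.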

Additional observations from a re-analysis of the deposited data

How the results depend on the processing

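Of 3331 values recomputed under alternatives, 3261 were labelled as unchanged. For a gene this meant the same side of the threshold and no sign change of a difference larger than its SE. Sign changes of smaller differences were not counted. Counts and medians were labelled as unchanged within a set margin. In the slt2 arsenate effect the number of the 54 genes past the limma threshold was 1 with centred arrays, 1 with quantile-normalised arrays and 7 with the trend and robust options. It ranged from 0 to 1 when 1 array was left out, and the median difference ranged from 0.03 to 0.12. Over all genes this comparison called 134 genes (104 higher and 30 lower), against 2 with the 12-array model, 28 with the replicate block, 242 with centred arrays (158 higher and 84 lower), 341 with quantile normalization (184 and 157) and 411 with the trend and robust options (285 and 126). Without 1 array it called between 41 (slt2 untreated array 3 left out) and 107 genes. Whether equal replicate numbers mark paired samples is not given in the labels, and the main tests did not use the numbers. Over all genes, the deviations of same-numbered arrays correlated at 0.044, 0.349 and 0.467 in wild type and at 0.392, 0.051 and 0.234 in slt2. Over the 54 genes alone the slt2 values were 0.88, 0.715 and 0.438, and the wild-type values -0.067, 0.35 and 0.433. In slt2, 5 of the 6 arrays correlated best with their own number, both over all genes and over the 54 genes. In wild type 4 of 6 did so in both sets. Between genotypes with arsenate 3 of 6 did over all genes and 6 of 6 over the 54 genes. Without arsenate these counts were 4 and 1. With the number as a block, 0 of the 54 genes passed in each of the 5 comparisons, with SER3 nearest (adjusted p = 0.0562 in slt2, against 0.571 without the block) and LYS20 at 0.106 (against 0.179). Without the 3 arrays that stood apart, the median of slt2 minus wild type with arsenate was 0.05 and that of the difference of effects 0.03. Only array 3 then remained in the wild-type arsenate group. The median difference of effects ranged from 0.18 to 0.97 when 1 array was left out.

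Because no named gene passed in the main tests, a change of sign could not involve a gene that had passed. Without the 3 arrays that stood apart, 28 of 54 genes changed sign in wild type, 14 between genotypes with arsenate and 21 in the difference of effects. Only array 3 then remained in the wild-type arsenate group, so all values of this setting describe that array and not a group. The named genes whose difference had exceeded its SE are given here. ARO80 was 0.00 in slt2 after quantile normalization. Without wild-type arsenate array 1, SER2 was 0.04 in wild type (down to -1.18 with another array left out), and HIS4 was -0.05 between genotypes with arsenate (up to 1.14) and -0.03 in the difference of effects (up to 1.16). Without the 3 arrays that stood apart, the wild-type effect was 0.55 for ARG1, 0.05 for ARO2, 0.01 for ARO4, 0.00 for ARO7, 0.15 for ARO8, -0.01 for ARO80, 0.12 for ASN1, 0.03 for ASN2, 0.01 for HIS1 and 0.09 for THR1. Between genotypes with arsenate it was -0.11 for ARG3, -0.06 for ARO2, 0.00 for ARO7, 0.17 for SER3 and 0.00 for THR1. The difference of effects was -0.23 for ARG1, -0.04 for ARO2, -0.12 for ARO3, -0.01 for ARO7, -0.03 for ARO8, 0.14 for ARO80, 0.00 for ASN1, -0.08 for ASN2, -0.04 for HIS6 and -0.10 for THR1. The cause was not tested.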
